A study of Lolium arundinaceum with 18 samples.

Results

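Hexokinase unigenes of tall fescue leaves were examined in watered and drought-stressed plants with and without nanomaterial sprays. A unigene is a group of assembled transcripts treated as 1 gene, and 11 of the 109684 unigenes had the word hexokinase in their deposited description. The 10 members were selected on that word and on the sum of their counts over the 18 libraries. Hexokinase-3 DN8837_c0_g1, rank 2 by that sum (8588 counts), was also named in the selection with its level under drought known. The sum was 52.6 counts for the last unigene taken and 40.1 counts for DN38431_c0_g1, the 1 left out. The identifiers are given here without the assembler's prefix.

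Hexokinase transfers a phosphate from ATP to glucose, which commits the sugar to glycolysis, starch and cell wall synthesis. In plants some hexokinases also act as glucose sensors: Arabidopsis HXK1 and the rice enzymes HXK5 and HXK6 have been assigned both roles, whereas rice HXK4 is plastidic and rice HXK7 cytosolic. In leaves the glucose comes from sucrose cut by invertases and from starch breakdown, and drought commonly alters both.

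Leaves of potted greenhouse seedlings of tall fescue (labelled Lolium arundinaceum, also called Festuca arundinacea) were collected after 20 days. CK was kept at 65 to 75% of field capacity and sprayed with double-distilled water, and Si NPs and CNCs were kept at the same water content and sprayed with silicon nanoparticles at 300 mg/L or cellulose nanocrystals at 100 mg/L. DS, DS_Si NPs and DS_CNCs were the matching groups at 35 to 45% of field capacity. Each group held 3 libraries, and neither a cultivar nor a transgene was named. A surfactant was named for the particle sprays alone and no spray was named for DS, so spraying, surfactant and particle cannot be told apart. No label ties the replicates to separate pots, so the p-values measure the spread between these libraries, which may be technical. In whole leaves, fewer cells of a type and less RNA per cell cannot be told apart.

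The libraries held 16175624 to 26102122 estimated counts each. All 6 unigenes of the small subunit of Rubisco and all 54 of chlorophyll a-b binding proteins were detected in every group, and the summed level of the chlorophyll a-b binding proteins was 19292 to 23220 TPM (reads scaled for transcript length and library size) in CNCs and 31143 to 69381 TPM in the other groups. The third CK library lay between the other two CK libraries in 98.8% of the 4508 unigenes in which those differed by more than 2-fold, against 45.6 to 67.0% for the 15 libraries of the other groups. It was kept, with n = 3 for CK. Whether it is an independent sample was not tested. If it is not, CK holds 2 independent libraries, and the SDs and p-values that involve CK are too small. The fit shares its estimate of the spread over all groups, so p-values of comparisons without CK may then be too small as well. Values without it are given for the main results that use CK.

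Of the 10 members, 6 were longer than 1000 bases and 4 were shorter than 700 bases. Hexokinase-6 DN1726_c0_g1 held 67.7% of the members' counts, hexokinase-3 DN8837_c0_g1 13.6%, hexokinase-9-like DN1726_c3_g1 10.3% and hexokinase-7 DN9674_c0_g1 5.61%. These 4 were the members with more than 1000 counts. The remaining members were a ketohexokinase, DN24881_c0_g1 (681 counts), a hexokinase-8-like unigene, DN126766_c0_g1 (520 counts), and 4 short unigenes with 52.6 to 366 counts. A KEGG hexokinase entry was attached to 9 of the 10. The exception was the ketohexokinase, a fructose kinase in animals that belongs to another kinase family and was matched through its name. Hexokinase-6 and hexokinase-9-like share the assembly component DN1726, which also holds a bax inhibitor 1 unigene, DN1726_c1_g1 (28745 counts). Sharing a component therefore does not show that the hexokinases are alike in sequence. Reads from near-identical stretches may have been split between hexokinase-6 and hexokinase-9-like, which was not tested.

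The summed level of the 10 members was 110 ± 25.8 TPM (SD, n = 3) in DS and 56.9 ± 8.74 TPM in DS_Si NPs, the highest and the lowest group means. The 3 DS libraries held 84.6 to 136 TPM and the 3 DS_Si NPs libraries 48.4 to 65.8 TPM, without overlap. CK (75.7 ± 11.6 TPM), Si NPs (69.0 ± 5.24 TPM), CNCs (74.1 ± 5.00 TPM) and DS_CNCs (73.5 ± 2.74 TPM) lay close together. Without hexokinase-3 the sum was 73.4 ± 13.0 TPM in DS, 70.1 ± 11.2 TPM in CK and 50.4 ± 5.29 TPM in DS_Si NPs. Hexokinase-6, at 54.3 to 70.3% of the full sum in DS_Si NPs, had a lower mean TPM there than in DS. In CPM (counts scaled for library size alone) it was 121 to 136 in DS_Si NPs and 107 to 129 in DS. The members were not summed on counts, so the low sum in DS_Si NPs holds for the TPM scale and for these members alone.

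The members took different shares of the summed TPM in different groups. The 6 with the fewest counts held 3.81 to 22.8% of it per library, although none had more than 681 counts over the 18 libraries. The short unigene DN48317_c0_g1 (228 bases) made up 12.5% of it in 1 DS_CNCs library on 10.6 counts, so sums and shares rest partly on few reads. Hexokinase-6 made up 56.0 to 66.3% in CK, 39.3 to 44.2% in CNCs and 28.3 to 50.0% in DS. Hexokinase-3 made up 27.7 to 38.8% in DS and 4.31 to 15.1% in the other groups. Hexokinase-9-like made up 20.4 to 23.4% in CNCs, 15.8 to 17.4% in Si NPs and 8.25 to 9.62% in CK. Hexokinase-6 was thus the largest part in every library but the second of DS, where hexokinase-3 exceeded it, and hexokinase-9-like had its largest shares in watered plants given particles.

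**Figure D1:**
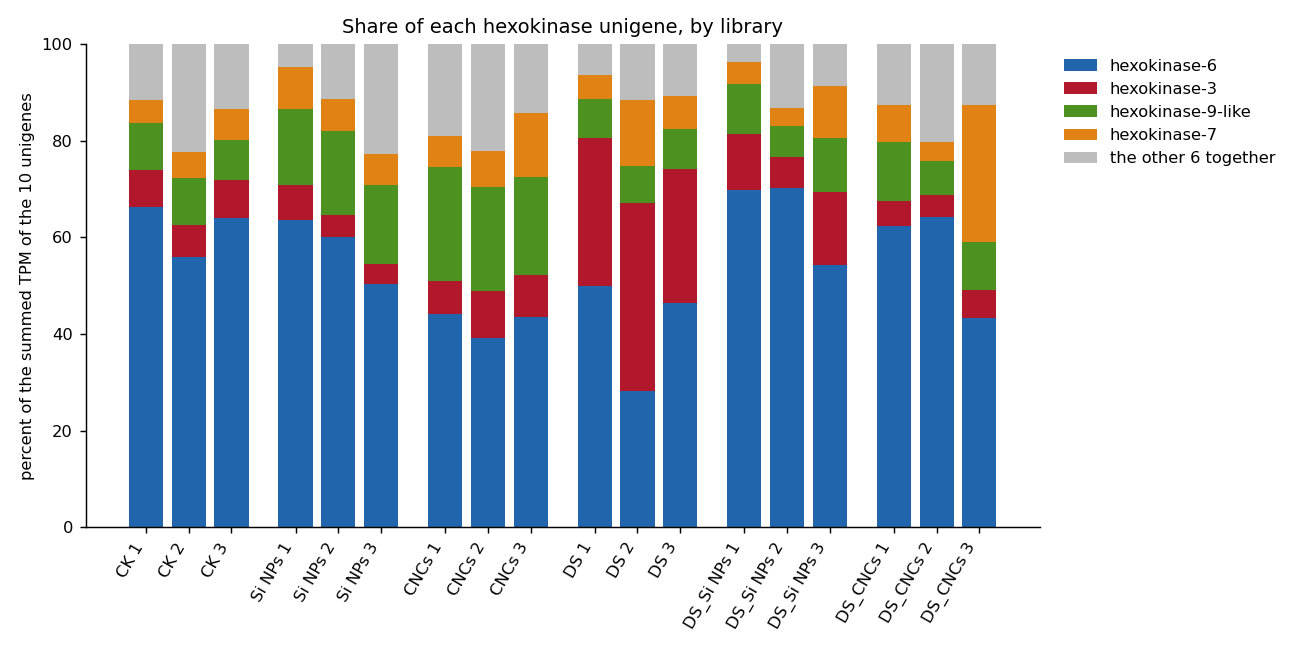
Share of the members' summed TPM (percent, stacked bars) in each of the 18 libraries, by group, for hexokinase-6, hexokinase-3, hexokinase-9-like, hexokinase-7 and the 6 lower members together. The hexokinase-3 segment spans 27.7 to 38.8% in the DS libraries and the hexokinase-9-like segment 20.4 to 23.4% in the CNCs libraries.

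Of the 10 members, 9 had enough counts to be tested, and edgeR's quasi-likelihood test was used throughout. A member was called where the adjusted p was under 0.05 and the log2 fold change exceeded 2 in either direction. Between CK and DS 1 member was called, higher in DS, where 2.01% of all tested unigenes were called. Between DS and DS_Si NPs 2 members were called, both lower in DS_Si NPs (3.39% of all tested unigenes), and between DS and DS_CNCs 1 was called, lower in DS_CNCs (5.8%). The called member was hexokinase-3 in each of these comparisons, joined by the short unigene DN127884_c0_g1 in DS_Si NPs. The background shares moved with single libraries. Without the third CK library 150 unigenes were called between CK and DS, against 1127 with it, and without the second DS library 359. Without the second DS library 144 were called between DS and DS_Si NPs, against 1895, and 832 between DS and DS_CNCs, against 3245. In these 2 comparisons, neither of which uses CK, 961 and 2187 were called without the third CK library. In each of these fits hexokinase-3 was still called. These comparisons share the 3 DS libraries, and hexokinase-3 was named in the selection with its level in them known. Its calls are therefore a description and carry no weight as a test.

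No member was called in watered plants or between the particles. The share of all tested unigenes called was 1.03% between CK and Si NPs, 0.377% between CK and CNCs and 0.0411% between Si NPs and CNCs. There 1, 2 and 1 members had an unadjusted p below 0.05, as did 12537, 10164 and 6216 of the 55979 tested unigenes. DESeq2 called no member in these 3 comparisons, and 4458, 2955 and 469 unigenes in all. Without the third CK library the unigenes called by edgeR fell from 574 to 3 between CK and Si NPs and from 211 to 4 between CK and CNCs, so these edgeR shares rest on that library. Between watered and stressed plants given the same particle no member was called either, with 0.0197% of all tested unigenes called for Si NPs and 0.0411% for CNCs. In these 2 comparisons 3 and 2 members had an unadjusted p below 0.05, as did 6437 and 7495 of the 55979 tested unigenes. DESeq2 called no member in either, and 645 and 1065 unigenes in all. Between DS_Si NPs and DS_CNCs 0% of all tested unigenes were called. There 3 members had an unadjusted p below 0.05, as did 5163 of all tested unigenes, and DESeq2 called no member and 490 unigenes in all.

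The interaction asks whether a particle's effect under drought differed from its effect in watered plants. For CNCs 1 member, hexokinase-3, was called (1.96% of all tested unigenes), and for Si NPs none was called (0.263%). For Si NPs 2 members had an unadjusted p below 0.05, as did 8932 of the 55979 tested unigenes. DESeq2 called 1 member there, and 1854 unigenes in all. Without the third CK library edgeR called 285 unigenes in all for CNCs, against 1099, and 8 for Si NPs, against 147. The median log2 fold change over the 9 tested members, hexokinase-3 among them, was 0.12 from CK to DS, -0.28 from DS to DS_CNCs and -1.60 from DS to DS_Si NPs, against 0, 0.10 and 0.14 over all tested unigenes. The last is the fitted value of the sparse hexokinase-8-like unigene (SE 1.45), and it is the same with DN127884_c0_g1 at its bound.

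**Figure D2:**
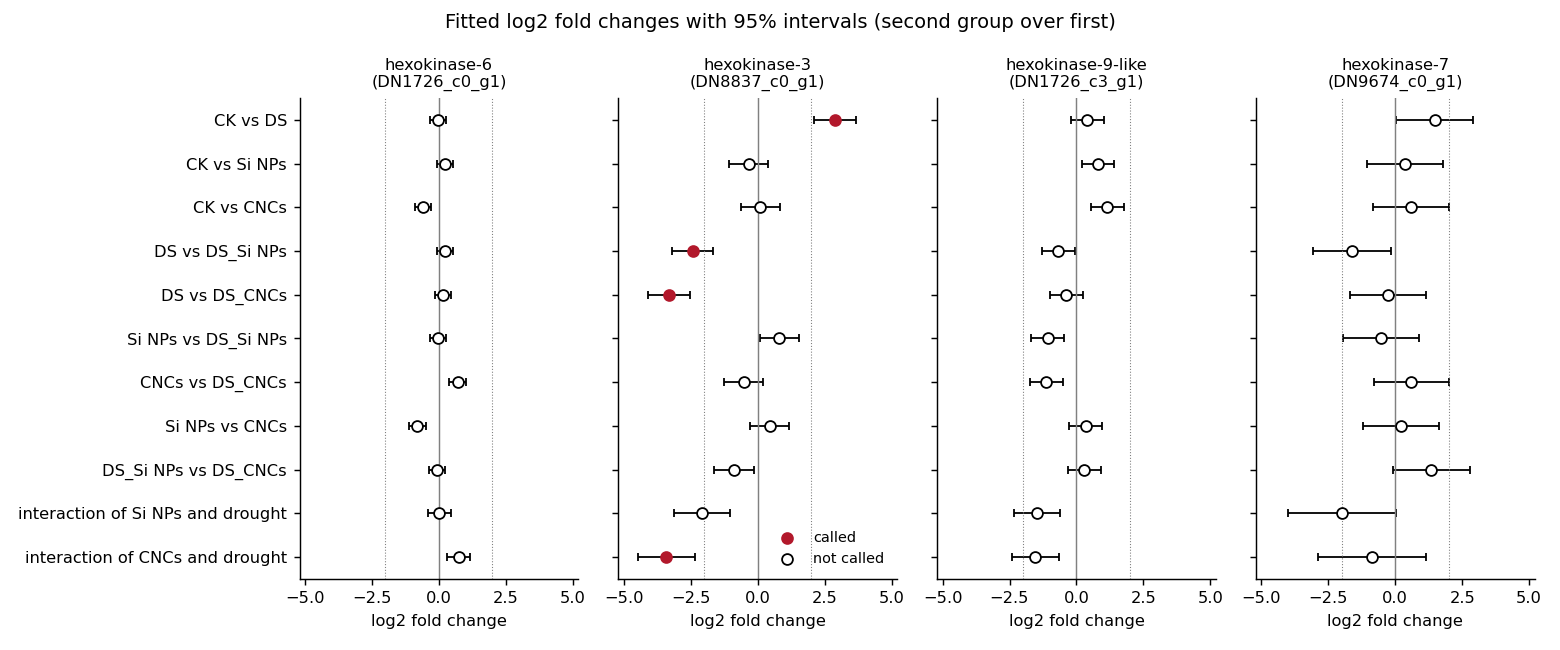
log2 fold change (points) with its 95% interval (bars) for the 4 members with more than 1000 counts in 11 comparisons, as second group over first, or for the interactions the particle effect under drought minus that in watered plants; called values are red. The called values are all of hexokinase-3: 2.89 for CK against DS, -2.42 and -3.30 for DS against DS_Si NPs and DS_CNCs, and -3.41 for the interaction of CNCs and drought.

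Hexokinase-6 DN1726_c0_g1, matched to an Aegilops tauschii protein whose rice namesake is one of the glucose sensors, was the most abundant member and moved within a narrow range. Its level was 43.0, 49.1 and 47.6 TPM in the CK libraries, 40.2, 42.2 and 36.9 TPM in Si NPs, and 30.3, 30.8 and 32.8 TPM in CNCs. Under drought it was 42.3, 38.5 and 50.3 TPM in DS, 39.4, 34.0 and 35.8 TPM in DS_Si NPs, and 47.4, 47.5 and 30.6 TPM in DS_CNCs. The CNCs libraries lay below those of every other group except for 1 DS_CNCs library, and the highest library was 1.66-fold the lowest. By mean level the order was CK (46.6 ± 3.21 TPM, SD, n = 3), DS (43.7 ± 6.01), DS_CNCs (41.8 ± 9.69), Si NPs (39.8 ± 2.72), DS_Si NPs (36.4 ± 2.76) and CNCs (31.3 ± 1.33). Neighbours in this order overlapped, except DS_Si NPs and CNCs.

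Drought alone gave no detectable difference in hexokinase-6. On estimated counts the log2 fold change from CK to DS was -0.043 (SE 0.14, 95% interval -0.35 to 0.26), and -0.082 without the third CK library. The interval lay within a 2-fold change in either direction. It is too narrow if the third CK library is not independent or the replicates are technical. From Si NPs to CNCs it was -0.80 (SE 0.14, 95% interval -1.11 to -0.50), with an edgeR adjusted p of 0.0368, which 0.323% of all tested unigenes passed at any fold change. This is below the fold required for a call, and the adjusted p passed the threshold in 7 of the 18 fits that each left out 1 library (range 0.0289 to 0.271). The edgeR adjusted p was 0.0834 without the third CK library, although CK is not part of that comparison. From CK to CNCs the log2 fold change was -0.58 (SE 0.14, edgeR adjusted p = 0.0685), or -0.64 (edgeR adjusted p = 0.225) without the third CK library. The interaction of CNCs and drought was 0.74 (SE 0.20, edgeR adjusted p = 0.0615). Without the DS_CNCs library at 30.6 TPM it was 0.87 (edgeR adjusted p = 0.0147), and without the third CK library 0.76 (edgeR adjusted p = 0.143). Of the 18 fits that each left out 1 library, the former was the only 1 with an adjusted p below 0.05. The CNCs group was also the lowest for the summed chlorophyll a-b binding proteins, and the part of this in the hexokinase-6 values was not tested.

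The direction of the particle differences in hexokinase-6 depended on the scale. In CPM, counts scaled for library size alone, the DS libraries held 107, 108 and 129 and the DS_Si NPs libraries 129, 121 and 136. On the TPM scale, which divides by transcript length, the DS_Si NPs libraries were the lower ones on average. The log2 fold change was 0.23 on counts (edgeR adjusted p = 0.324) and -0.25 on log2(TPM + 0.5), and from CK to Si NPs it was 0.22 on counts (edgeR adjusted p = 0.376; 0.17 without the third CK library) and -0.23 on log2(TPM + 0.5). Here library scaling also enters: CPM was 122 to 138 in CK and 117 to 133 in Si NPs, without a higher mean in Si NPs, and the TMM factors that scale the fit were 0.951 to 1.10 in CK and 0.860 to 0.884 in Si NPs. With an offset for transcript length the value from CK to Si NPs was -0.025. The length implied by the ratio of counts to TPM, with 280 unigenes of a single transcript as the scale, was 1531 to 1707 bases in DS and 1984 to 2250 bases in DS_Si NPs. It was 1598 to 1818 bases in CK and 1940 to 2097 bases in Si NPs, again without overlap. In the CNC groups it was 1862 to 2116 bases in DS_CNCs, also above DS without overlap, and 1710 to 2007 bases in CNCs, which overlapped CK. The deposited length of hexokinase-6, which has 8 assembled transcripts, was 4544 bases, so the implied length was shorter than the deposited one in every library, and longer than in the matching untreated group after either particle under drought and after silicon nanoparticles in watered plants. Which transcripts carried the reads was not analysed here.

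**Figure D3:**
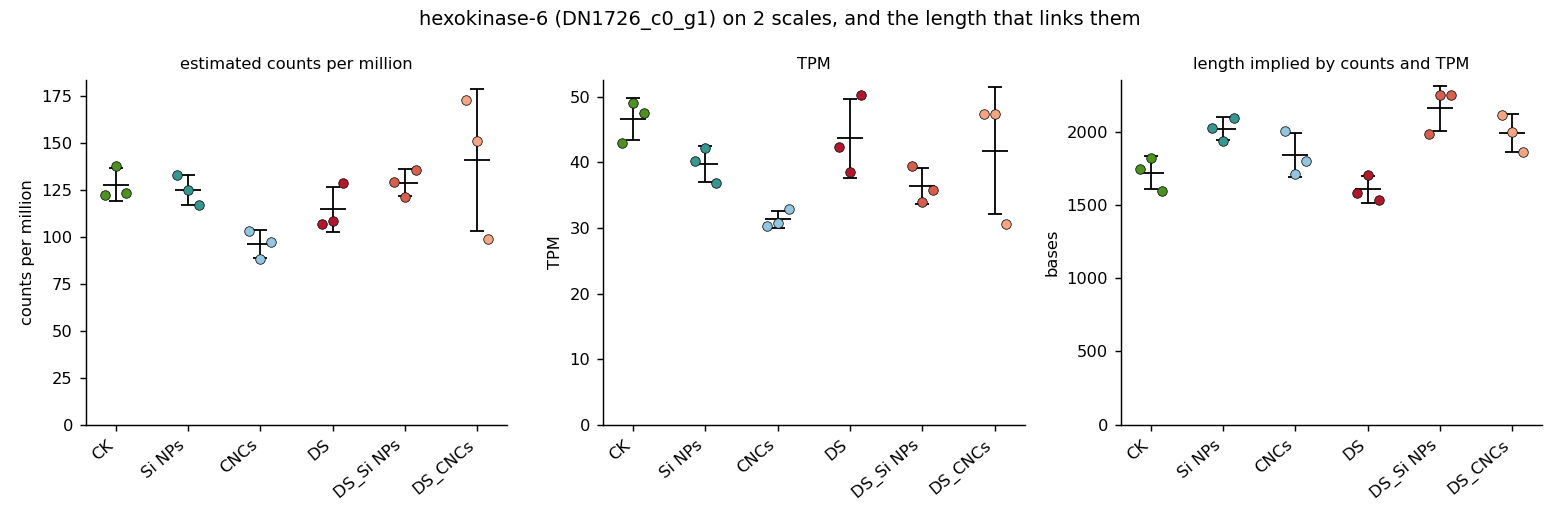
Hexokinase-6 in each of the 18 libraries on 3 scales, as CPM, as TPM and as the implied transcript length in bases, by group, with group means. The implied length is 1531 to 1707 bases in DS and 1984 to 2250 bases in DS_Si NPs, where CPM and TPM order these groups in opposite ways.

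Hexokinase-3 DN8837_c0_g1, annotated as a member of the glucose-phosphorylating hexokinases, was the one member set apart by drought. Its level was 25.9, 52.8 and 30.0 TPM in the DS libraries. In the other 15 libraries it was 3.04 to 9.96 TPM, so that the lowest DS library stood 2.60-fold above the highest of the rest. The level was 4.98, 5.80 and 5.83 TPM in CK, 6.52, 3.04 and 9.96 TPM in DS_Si NPs, and 3.94, 3.38 and 3.99 TPM in DS_CNCs. In watered plants given particles it was 4.54, 3.27 and 3.16 TPM in Si NPs and 4.70, 7.62 and 6.43 TPM in CNCs. The stressed plants given either particle thus held about the level of the watered plants, with DS_Si NPs the most variable of these groups.

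The mean level of hexokinase-3 was 36.2 ± 14.5 TPM (SD, n = 3) in DS, which was 6.54-fold that in CK, 5.57-fold that in DS_Si NPs and 9.61-fold that in DS_CNCs. Below DS the order was DS_Si NPs (6.51 ± 3.46 TPM), CNCs (6.25 ± 1.47), CK (5.54 ± 0.48), DS_CNCs (3.77 ± 0.34) and Si NPs (3.66 ± 0.77), and of these neighbours only CK and DS_CNCs did not overlap. On estimated counts the log2 fold change was 2.89 (SE 0.37) from CK to DS, -2.42 (SE 0.36) from DS to DS_Si NPs and -3.30 (SE 0.37) from DS to DS_CNCs. The DS library at 52.8 TPM was the highest of all, and without it these values were 2.48, -2.04 and -2.92. Without the third CK library the value from CK to DS was 2.93. With the libraries of DS and DS_Si NPs alone in the fit, that difference was -2.42 as before but missed the threshold, in a fit that called 0 of all tested unigenes.

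In watered plants the particles gave small differences in hexokinase-3, with log2 fold changes of -0.34 for Si NPs and 0.11 for CNCs against CK, or -0.31 and 0.12 without the third CK library. The interaction with drought was -3.41 (SE 0.50, 95% interval -4.47 to -2.35) for CNCs and -2.08 (SE 0.49) for Si NPs, the latter short of the adjusted p threshold. Without the third CK library these were -3.47 and -2.15. DS_CNCs was lower than DS_Si NPs by a log2 fold change of -0.89 (SE 0.35), which was not called, and 1 DS_Si NPs library, at 3.04 TPM, lay below the lowest DS_CNCs library. The implied length of hexokinase-3 was steady, with group means of 1456 to 1521 bases, and counts and TPM gave the same order of DS against the rest.

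**Figure D4:**
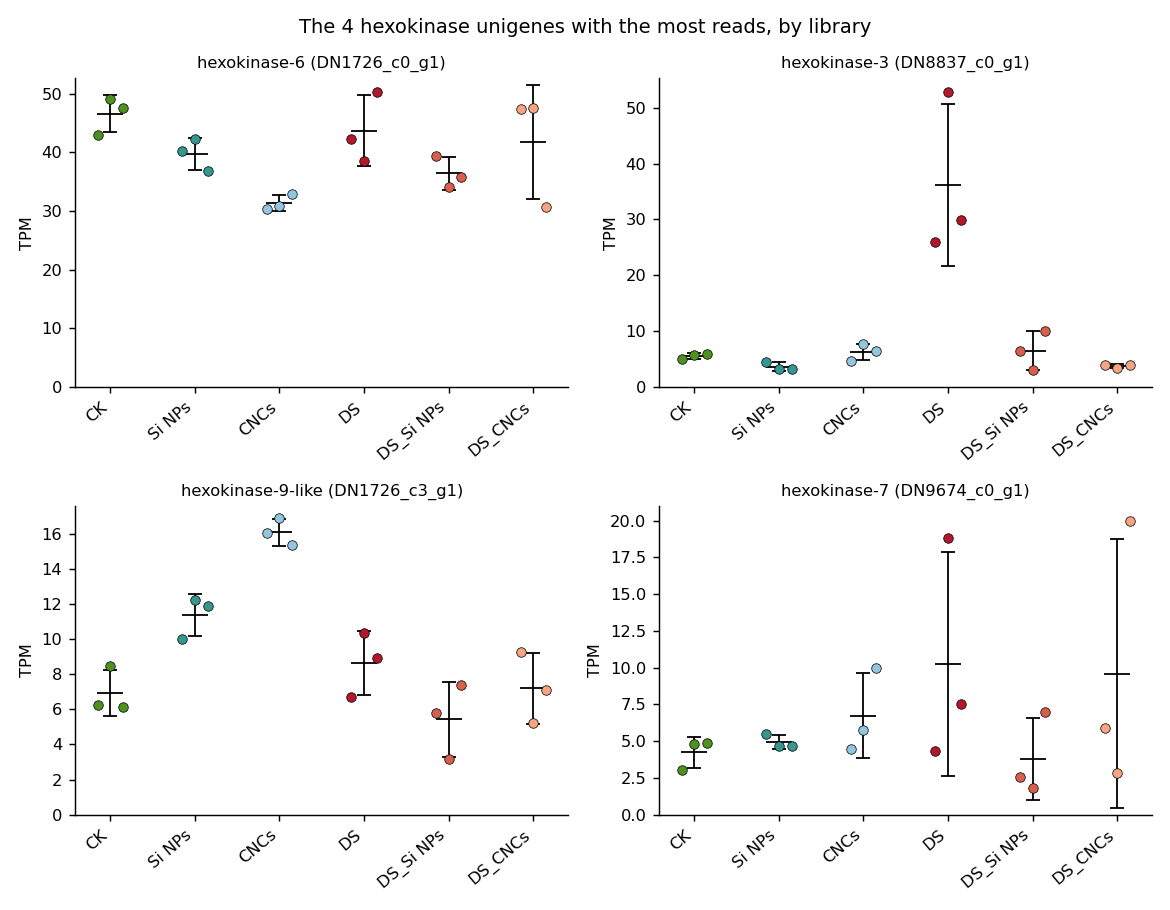
Level (TPM) of hexokinase-6, hexokinase-3, hexokinase-9-like and hexokinase-7 in each of the 18 libraries (points), with the mean and SD of the 3 libraries of each group. Hexokinase-3 lies at 25.9 to 52.8 TPM in DS and at 3.04 to 9.96 TPM elsewhere, hexokinase-9-like is highest in CNCs (15.3 to 16.9 TPM), and hexokinase-7 has 2 high libraries, 1 of DS and 1 of DS_CNCs.

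The unigenes whose pattern over the 18 libraries was most like that of hexokinase-3 were named by Pearson's r of log2 CPM among 9113 unigenes with a mean of at least 5 TPM. The highest 5 had r of 0.951 to 0.970, and these values reflect mainly the contrast of the 3 DS libraries with the rest. Glucan endo-1,3-beta-glucosidase 8 DN4909_c0_g1, an enzyme that cuts callose-type glucans, had the highest r (0.970) and stood at 22.4 to 73.8 TPM in DS and 3.14 to 12.8 TPM elsewhere. A ribonuclease 1-like unigene, DN8425_c0_g1, stood at 20.9 to 220 TPM in DS and 0.43 to 10.7 TPM elsewhere. A 2-alkenal reductase-like unigene, DN5023_c0_g1, whose enzyme class detoxifies reactive carbonyls, stood at 107 to 261 TPM in DS and up to 39.4 TPM elsewhere. The other two, a plant UBX domain-containing protein 4-like (DN204_c16_g1) and an acyl-CoA thioesterase (DN4084_c0_g1), also did not overlap between DS and the remaining libraries. For hexokinase-6 the highest 5 had lower r, 0.791 to 0.824, and included UDP-sugar pyrophosphorylase and a sigma factor of the plastid RNA polymerase.

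Hexokinase-9-like DN1726_c3_g1 had its highest levels in watered plants given particles. Its level was 6.22, 8.45 and 6.14 TPM in CK, 9.98, 12.2 and 11.9 TPM in Si NPs, and 16.0, 16.9 and 15.3 TPM in CNCs. Under drought it was 6.70, 10.3 and 8.94 TPM in DS, 5.79, 3.14 and 7.38 TPM in DS_Si NPs, and 9.24, 5.23 and 7.08 TPM in DS_CNCs. The CNCs libraries lay above all others, and the Si NPs libraries lay above those of CK without overlap but overlapped DS. The mean was 2.32-fold that of CK in CNCs and 1.64-fold in Si NPs.

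None of these differences in hexokinase-9-like was called. The log2 fold change against CK was 1.15 (SE 0.29, edgeR adjusted p = 0.0739) in CNCs and 0.81 (SE 0.29, edgeR adjusted p = 0.131) in Si NPs. Without the third CK library these were 1.06 (edgeR adjusted p = 0.288) and 0.73 (edgeR adjusted p = 0.344). DESeq2, with the third CK library kept, gave an adjusted p of 0.0075 for CNCs against CK, where it called 2955 unigenes in all, against 211 with edgeR. Under drought the value from DS to DS_Si NPs was -0.68 (edgeR adjusted p = 0.153). The interaction with drought was -1.53 (SE 0.41, edgeR adjusted p = 0.0551) for CNCs and -1.48 (SE 0.41, edgeR adjusted p = 0.106) for Si NPs. Leaving out the third CK library gave -1.48 (edgeR adjusted p = 0.149) and -1.45 (edgeR adjusted p = 0.252). Both interactions share the CK and DS libraries.

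Hexokinase-7 DN9674_c0_g1, whose rice namesake is the cytosolic enzyme, varied widely within groups. It was 4.33, 18.8 and 7.50 TPM in DS, 5.86, 2.86 and 20.0 TPM in DS_CNCs, and 1.80 to 9.96 TPM in the 16 libraries other than the highest of each. The groups next to each other in mean level all overlapped. The log2 fold change was 1.47 (SE 0.68, edgeR adjusted p = 0.246) from CK to DS (1.47 also without the third CK library) and -1.63 (SE 0.68, edgeR adjusted p = 0.149) from DS to DS_Si NPs, and 0.63 and -0.82 without the DS library at 18.8 TPM. That library also held the highest hexokinase-3 level.

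The lower members were near the limit of these libraries. The ketohexokinase DN24881_c0_g1 ranged from 0.13 to 4.51 TPM. It was 0.79, 0.51 and 0.99 TPM in DS, 1.18, 4.03 and 1.97 TPM in DS_Si NPs and 1.78 to 4.51 TPM in DS_CNCs. In TPM DS lay below both particle groups without overlap, the opposite direction to hexokinase-3, but neither difference was called (log2 fold change 1.18, SE 0.80, edgeR adjusted p = 0.363, and 1.22, SE 0.79, edgeR adjusted p = 0.317). Its estimated counts were 25, 17 and 29 in DS and 22, 81 and 38 in DS_Si NPs, which overlap. In TPM DS_CNCs also lay above CNCs without overlap. Hexokinase-8-like DN126766_c0_g1 reached 3.62 TPM in 1 DS_CNCs library, 2.54 TPM in 1 CK library and 0.06 to 1.41 TPM in the other 16. The DS_CNCs library with this value was the one with the highest hexokinase-7 and the lowest hexokinase-6 of its group. Hexokinase-2 DN16365_c0_g1 was at 2.25 to 4.22 TPM in CNCs and at 0.61 to 3.38 TPM in the other groups. The low quality hexokinase-9-like match DN77406_c0_g1 was at 0.13 to 0.71 TPM in DS_Si NPs and reached 5.13 TPM in CNCs.

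The short unigene DN127884_c0_g1, described as hexokinase-2 and matched to HXK5 in Swiss-Prot, was listed at 0 in 6 libraries. In DS it held 3, 14.1 and 13.3 counts, and in all 3 DS_Si NPs libraries it held 0. Against a floor of 3 counts over the group, its count was at least 10.2-fold lower in DS_Si NPs than in DS. The call between these groups (edgeR adjusted p = 0.0484) rested on 30.4 counts in DS and was lost in 16 of the 18 fits that each left out 1 library, with adjusted p of 0.046 to 0.153, the highest without the second DS library. DN48317_c0_g1, at 0 in 8 libraries, had too few counts to be tested.

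**Figure D5:**
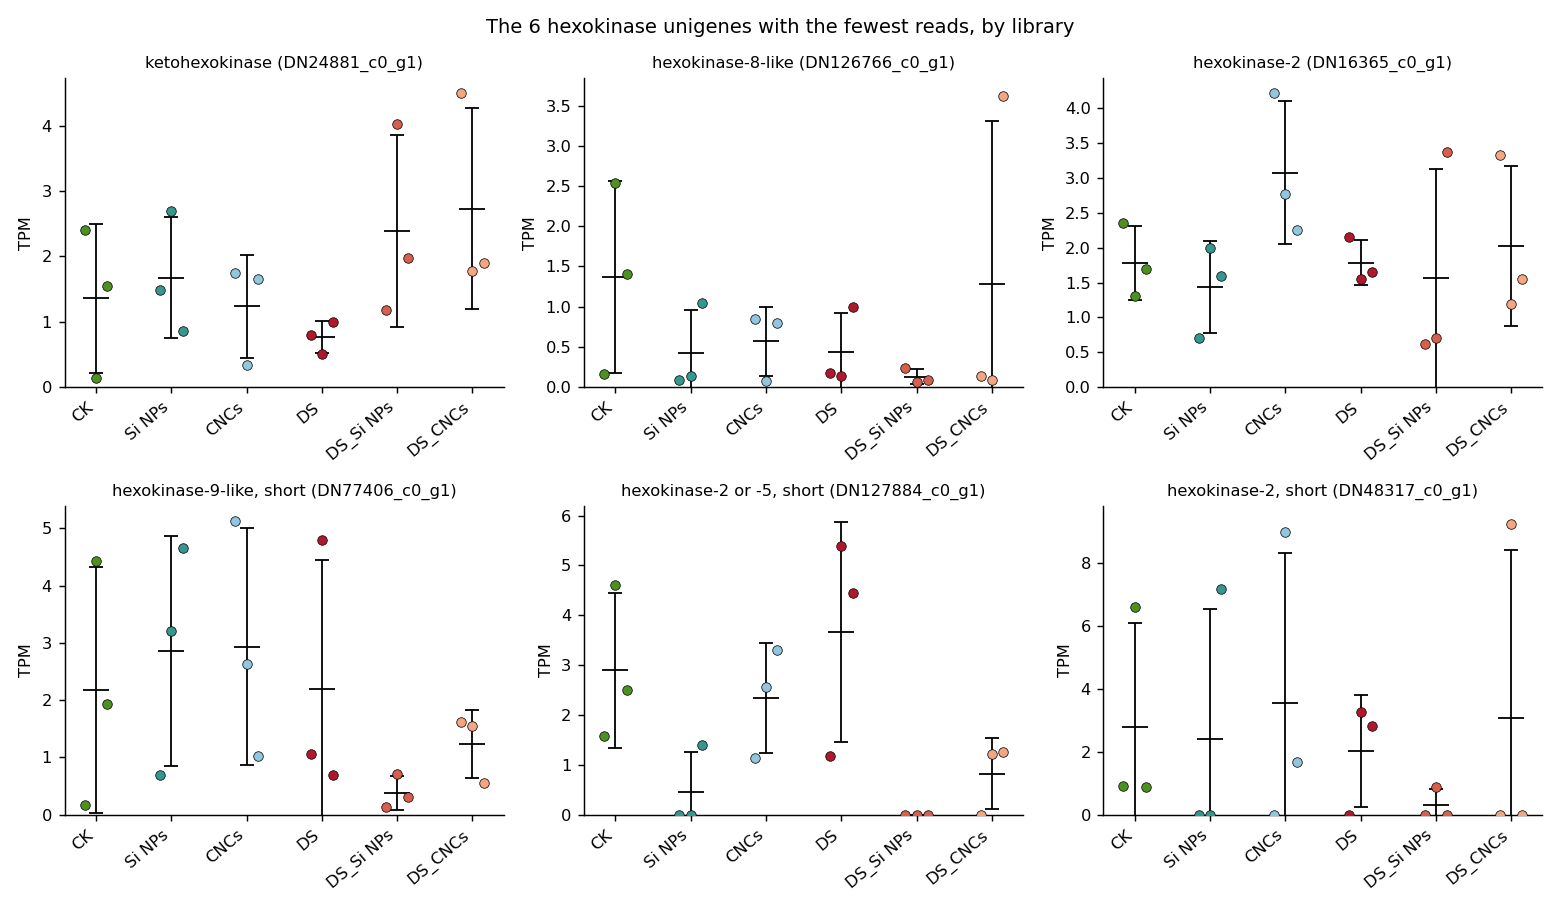
Level (TPM) of the 6 lower members in each of the 18 libraries (points), with the mean and SD of the 3 libraries of each group, error bars cut at 0. DN127884_c0_g1 is listed at 0 in all 3 DS_Si NPs libraries, and hexokinase-8-like has single high libraries of DS_CNCs (3.62 TPM) and CK (2.54 TPM).

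A further 8 unigenes carried a hexokinase name only in KEGG or Swiss-Prot and were therefore no members. The most abundant in counts, DN8420_c0_g1, matched HXK2 and had mean levels of 3.81 TPM in Si NPs, 4.15 TPM in DS_Si NPs, 4.83 TPM in CK, 6.37 TPM in DS_CNCs, 7.31 TPM in DS and 7.98 TPM in CNCs. DN19768_c0_g1 matched HXK4, the plastidic enzyme of rice, with 534 counts over the 18 libraries.

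Around hexokinase in the pathway, each list held 2 called unigenes at most in any comparison. Of 48 sucrose-cleaving unigenes (invertases and sucrose synthases, which release the hexoses) 29 were tested, and none was called from CK to DS or from DS to DS_Si NPs. From DS to DS_CNCs 2 fell, 6.9% of the list against 5.8% of all tested unigenes, and the median over the list was -0.076, against 0.10 over all tested unigenes. The cell wall invertase DN4450_c0_g1 fell by 2.70 on the log2 scale (SE 0.45, edgeR adjusted p = 0.00404), and its interaction of CNCs and drought was -4.26 (SE 0.62, edgeR adjusted p = 0.00328). It stood at 6.56 ± 3.68 TPM in DS, 1.17 ± 0.32 TPM in DS_CNCs and 14.1 ± 3.35 TPM in CNCs. The insoluble beta-fructofuranosidase DN111293_c0_g1, also a cell wall invertase, fell by 3.32 (SE 0.57, edgeR adjusted p = 0.00431). From CK to Si NPs 1 unigene of the list rose (DN8513_c0_g2) and 1 fell (DN99341_c0_g1), 6.9% of the list against 1.03% of all tested unigenes. Without the third CK library neither was called (log2 fold changes 3.08 and -4.11, edgeR adjusted p = 0.178 and 0.190), in a fit that called 3 unigenes in all.

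Hexose transporters bring glucose and fructose into the cell, and 19 of 27 were tested. From DS to DS_CNCs 1 fell (5.26% of the list against 5.8%), the sugar transporter MST4 DN29897_c0_g1, at 36.7 ± 36.6 TPM in DS and 2.01 ± 1.24 TPM in DS_CNCs (edgeR adjusted p = 0.0475). This call held in 4 of the 18 fits that each left out 1 library. The interaction of CNCs and drought was called for 2 hexose carriers, DN1946_c5_g1 and DN16002_c0_g1, both negative (10.5% of the list against 1.96%), and it held in 7 and 3 of the 18 such fits. The median over the 19 from DS to DS_CNCs was -0.94, against 0.10 over all tested unigenes.

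Fructokinases phosphorylate the fructose released from sucrose, a step that hexokinase can also carry out. Of 6 tested among 7, 1 was called from DS to DS_Si NPs (16.7% against 3.39% of all tested unigenes): fructokinase 1 DN1980_c0_g1 fell by 2.17 on the log2 scale from DS to DS_Si NPs (SE 0.43, edgeR adjusted p = 0.0149), with mean levels of 32.8 TPM in DS, 8.14 TPM in DS_Si NPs and 14.1 TPM in DS_CNCs. Its mean was 17.5 TPM in CK and 37.6 TPM in CNCs, so DS was not its highest group. With the DS and DS_Si NPs libraries alone in the fit, where 0 of all tested unigenes were called, the value was -2.16 (edgeR adjusted p = 0.154). Without the second DS library it was -1.78 (edgeR adjusted p = 0.0713). Of 8 tested phosphofructokinases of 10, which catalyse a later step of glycolysis, DN17683_c0_g1 rose from CK to Si NPs (log2 fold change 5.38, edgeR adjusted p = 0.0438, or 0.162 without the third CK library) and from DS to DS_CNCs (4.20, edgeR adjusted p = 0.0258, below 0.05 in 13 of the 18 fits that each left out 1 library), 12.5% of the list each time against 1.03% and 5.8% of all tested unigenes. No unigene was called in any comparison among the 9 tested of hexose phosphate conversion or the 7 tested voltage-dependent anion channels, the mitochondrial porins to which hexokinase binds. Of 36 tested unigenes of SnRK1 and trehalose-6-phosphate, the other sugar signals, 1 was called (2.78% against 2.01% of all tested unigenes between CK and DS): trehalose-phosphate phosphatase 6 DN10876_c0_g1 rose by a log2 fold change of 2.10 from CK to DS (SE 0.39, edgeR adjusted p = 0.00999). Its edgeR adjusted p was 0.0673 without the third CK library, and its log2 fold change was 1.30 without the second DS library.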

How the data were processed

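RNA from leaves was sequenced as stranded poly(A) libraries. Per the labels and the study's methods, the authors trimmed reads with Cutadapt, assembled unigenes with Trinity without a reference genome, annotated them with DIAMOND and quantified them with Salmon. The deposited table holds the authors' estimated counts per unigene (452055 values were not whole and counts were rounded here) and the TPM the authors derived from them. Of 109684 unigenes, 55979 passed edgeR's filterByExpr. All 18 libraries were fitted with 1 mean per group (edgeR 4.0.16 in R 4.3.3, TMM, quasi-likelihood) and p-values were adjusted by Benjamini-Hochberg over all tested unigenes. The test was checked on simulated counts. The standard error is the log2 fold change divided by the root of F. The named unigenes were the members, the 5 most like hexokinase-3 and hexokinase-6 by r of log2 CPM (prior count 2), and, per pathway list and comparison, up to 2 called ones of lowest adjusted p. Alternatives were DESeq2 1.42.0, limma 3.58.1 on log2(TPM + 0.5) and log2(TPM + 1), other filters and fold limits, a length offset, group pairs alone and single libraries left out. The members and lists were chosen with earlier results of these data known. No sequence or genome coordinate was used.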

Additional observations from a re-analysis of the deposited data

Results flagged for a closer look

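The difference between the CNCs effect under drought and that in watered plants was tested as an interaction, and for hexokinase-3 DN8837_c0_g1 it passed the threshold with a log2 value of -3.41 (SE 0.50). It ranged from -3.65 to -3.02 over the fits that each left out 1 library. The unigene had been named in the selection with its level in DS known, so this value describes the same 3 DS libraries again.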

How the results depend on the processing

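The count of called hexokinases kept its value within 1.5 times in 316 of 339 alternatives. This says little, because most comparisons had a count of 0 in the reported fit, and a 0 that stayed 0 was taken as kept. The counts of 1 were all of hexokinase-3. From DS to DS_Si NPs the count was 2 in the reported fit and lower in 21 of 31 alternatives. It fell to 1 with a mean of at least 5 TPM, without a filter on low counts, with the length offset (chosen after seeing the data) and with the replicate block, and to 0 when only the libraries of the groups compared were fitted (hexokinase-3 edgeR adjusted p = 0.109), where 0 of all tested unigenes were called. It ranged from 1 to 2 over single libraries left out. With no fold threshold 1 was called from Si NPs to CNCs (hexokinase-6), where 181 of all tested unigenes passed. DESeq2 called 1 for the interaction of Si NPs and drought (hexokinase-3, -2.13), where it called 1854 unigenes in all. The cause of these changes was not tested. Sign changes were counted for hexokinase-3 in all comparisons and for hexokinase-6, hexokinase-9-like, hexokinase-7 and DN127884_c0_g1 in chosen ones. Of these 863 refitted log2 fold changes, 14 changed sign, of which all but 1 were of hexokinase-6, in comparisons without a call. The other members were not counted. On log2(TPM + 0.5) and log2(TPM + 1) hexokinase-6 was at -0.23 and -0.22 from CK to Si NPs, -0.25 in each from DS to DS_Si NPs, and -0.083 and -0.081 from DS to DS_CNCs. With the length offset these were -0.025, -0.20 and -0.18, and 0.042 from CK to DS. Over single libraries left out it ranged from -0.082 to 0.021 from CK to DS and from -0.016 to 0.28 from DS to DS_CNCs, and hexokinase-3 from -0.10 to 0.27 from CK to CNCs. The TPM scale moved the median of all unigenes from 0.04 to 0.37 from Si NPs to CNCs, and relative to that median hexokinase-6 was at -0.70. Without that correction, its value there ranged from -0.84 to -0.33 over the alternatives that left out no single library. Its interaction of CNCs and drought ranged from 0.48 to 0.77 over them. The exact test could not be fitted to the interactions. Replicate numbers did not pair the libraries (correlation of same-numbered deviations -0.081 to 0.16), and the replicate block changed no other count. The pathway unigenes lost their call in 133 of 410 alternatives, with no change of sign. The call of DN127884_c0_g1, at edgeR adjusted p = 0.0502 with the replicate block, rested on 84.7 counts over the 18 libraries. Taking the hexokinases by KEGG entry, also chosen after seeing the data, kept each count.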
